A study of Homo sapiens with 6 samples.

Results

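The claudins CLDN1, CLDN3, CLDN4, CLDN7, CLDN8, CLDN11, CLDN12 and CLDN23 were examined together with OCLN and TJP1, as the genes for claudin and tight junction proteins in KYSE70 cells. These 10 genes were taken by symbol from the 58884 genes in the expression table, and all 10 were found. KYSE70 is an established line of human esophageal squamous cell carcinoma (ESCC), and its NFE2L2 gene, which encodes the transcription factor NRF2, carries a mutation. NRF2null-KYSE70 was derived from KYSE70 by CRISPR-Cas9 cutting of NFE2L2 followed by growth from a single cell, so the line is 1 clone. Both lines were untreated, and each had 3 RNA-seq libraries. The comparison asks how far the tight junction genes of the cells differed once mutant NRF2 was disrupted. The paper reports a faint band of smaller NRF2 protein in NRF2null-KYSE70 and states that NRF2 was not completely lost there. Because there was 1 clone, the effect of the cut and other differences between this clone and its parental line cannot be told apart. Values are normalized counts, which are reads per gene after each library was divided by its size factor, and the spread between libraries was the only error available.

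Tight junctions seal the space between neighbouring epithelial cells near their apical side. Claudins form the strands of the junction and set which ions and solutes pass, so the set of claudins that a cell makes decides how tight its barrier is. Occludin, the product of OCLN, is another membrane protein of the strands, and TJP1 encodes a scaffold of the cytoplasmic plaque that ties strands to actin. In stratified squamous epithelium such as that of the esophagus, CLDN1 is a leading claudin.

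CLDN1 was the tight junction gene that differed most between the lines among those measured in both, with 5.59 times its KYSE70 level in NRF2null-KYSE70 cells. OCLN, CLDN3 and CLDN12 were also higher in NRF2null-KYSE70, by 1.77, 1.66 and 1.59 times. CLDN8 went from a low level in KYSE70 to no read in NRF2null-KYSE70. CLDN4 and TJP1 had the smallest fold changes of the tested genes, and CLDN7, CLDN11 and CLDN23 were barely detected in either line.

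The genomic sequence in front of CLDN1, CLDN3, CLDN12 and OCLN, which were higher in NRF2null-KYSE70, is shown with that of CLDN7, which was barely detected. Where a gene had several windows, 1 is shown. The windows of CLDN4 and TJP1, whose differences were small, and of CLDN11, which was also barely detected, are not shown. Each run gives the 250 bases before an annotated RefSeq transcript start on GRCh38.p14, written 5′ to 3′ on the strand of the gene. CLDN1 lies at chr3:190322447-190322696, CLDN3 at chr7:73770271-73770520, CLDN12 at chr7:90403211-90403460, OCLN at chr5:69492297-69492546 and CLDN7 at chr17:7262479-7262728. Capitals mark the E-box CAGGTG on either strand, the letters that SNAI and ZEB repressors of epithelial genes bind.
CLDN1: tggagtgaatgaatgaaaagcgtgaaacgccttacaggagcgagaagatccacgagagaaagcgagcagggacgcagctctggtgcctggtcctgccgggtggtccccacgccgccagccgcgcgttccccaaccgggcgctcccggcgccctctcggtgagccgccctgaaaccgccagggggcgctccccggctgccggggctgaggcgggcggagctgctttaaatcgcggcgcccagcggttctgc
CLDN3: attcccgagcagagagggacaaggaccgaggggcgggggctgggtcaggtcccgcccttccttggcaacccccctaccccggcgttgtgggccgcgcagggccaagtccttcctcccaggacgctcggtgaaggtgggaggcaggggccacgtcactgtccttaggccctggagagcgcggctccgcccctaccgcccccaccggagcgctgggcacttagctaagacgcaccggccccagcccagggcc
CLDN12: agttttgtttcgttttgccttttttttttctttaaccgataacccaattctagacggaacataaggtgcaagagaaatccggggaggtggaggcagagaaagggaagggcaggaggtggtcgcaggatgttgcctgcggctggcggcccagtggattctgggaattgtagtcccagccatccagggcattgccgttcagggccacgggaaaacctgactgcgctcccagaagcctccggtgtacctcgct
OCLN: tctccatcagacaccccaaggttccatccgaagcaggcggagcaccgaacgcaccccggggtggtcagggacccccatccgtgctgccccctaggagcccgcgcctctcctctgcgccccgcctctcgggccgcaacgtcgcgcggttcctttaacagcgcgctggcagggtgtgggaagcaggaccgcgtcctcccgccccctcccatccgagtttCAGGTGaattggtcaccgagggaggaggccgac
CLDN7: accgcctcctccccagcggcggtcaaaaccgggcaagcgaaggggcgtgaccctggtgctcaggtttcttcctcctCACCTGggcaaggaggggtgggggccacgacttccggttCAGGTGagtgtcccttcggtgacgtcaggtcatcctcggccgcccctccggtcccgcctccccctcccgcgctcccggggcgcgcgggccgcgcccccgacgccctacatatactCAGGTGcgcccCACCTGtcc

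The run of CLDN7 held 4 E-boxes and that of OCLN held 1, whereas those of CLDN1, CLDN3 and CLDN12 held 0. Motifs were counted over the whole RefSeq window, which goes on for 50 bases past the start. The window of CLDN7 printed above then held 5, a number reached by 33 of 35116 windows, or 0.094%. At least 1 E-box was present in 20.6% of all windows. Windows on chromosome 8, where CLDN23 lies, were left out when those of the 10 genes were taken. The windows used numbered 14, from 8 of the 10 genes, and 5 of the 14 held an E-box. These were 1 window each of CLDN3, CLDN7 and TJP1 and both windows of OCLN. The second window of CLDN7, which is not shown, held 0. So did the window of CLDN4 and both windows of CLDN11, which was also barely detected. The count of 5 thus describes 1 window and not the barely detected genes as a set. The core of the antioxidant response element to which NRF2 binds, TGACNNNGC on either strand, occurred in 13.3% of all windows and in 4 of the 14, with 2 copies in that of CLDN3 and 1 copy in a window each of CLDN7, CLDN12 and OCLN. In the OCLN window 1 copy overlapped an E-box. The TEAD motif GGAATG occurred in 14.0% of all windows and in 0 of the 14. A match describes letters in the window and not a bound site.

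Each library held between 52072801 and 63975313 reads, and 21756 to 22466 genes had a read. NFE2L2 itself measured 9839, 9906 and 10040 in KYSE70 and 5803, 6041 and 6434 in NRF2null-KYSE70, with no overlap. Cas9 cuts can leave the RNA in place, so this level is only a partial check of the label. Of the 15994 genes whose mean normalized count reached 10, 57.6% passed an adjusted p of 0.05, 29.3% as higher and 28.3% as lower in NRF2null-KYSE70. Past the further cut-off of an absolute log2 fold change of 1 were 14.7%. The 3 libraries of one line lay entirely above or below those of the other for 63.4%. The lines thus differed over much of the transcriptome. The counts of tight junction genes, and of every other list below, are to be read against these shares. Of the 10 genes, 7 reached the filter. CLDN8 did so through KYSE70 only, so that it had to differ, and it is left out of the counts here. Of the other 6, 5 passed the adjusted p as higher and 0 as lower, and CLDN1 also passed the fold cut-off. The groups were fully apart for 5 of the 6. The median log2 fold change of the 6 was 0.70, beside -0.01 over all tested genes.

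**Figure D1:**
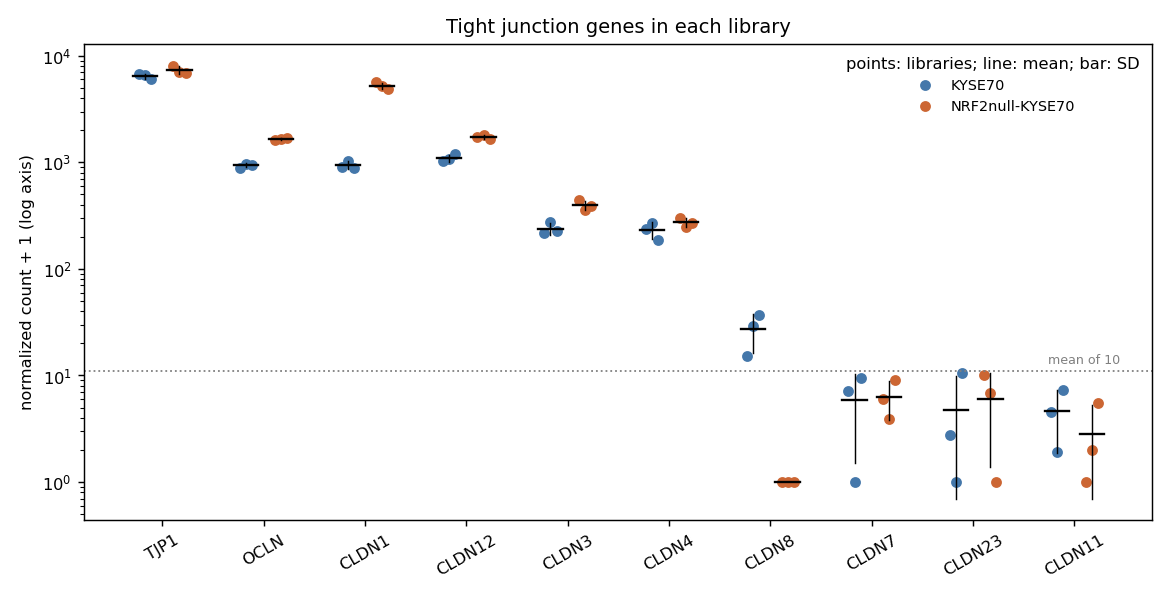
Normalized count plus 1 of each tight junction gene (log axis) in each of 3 KYSE70 and 3 NRF2null-KYSE70 libraries (points), with the mean (line) and SD (bar). Counts were not divided by gene length. The NRF2null-KYSE70 libraries sit above all KYSE70 libraries for CLDN1, OCLN, CLDN12 and CLDN3, narrowly so for TJP1, and at a count of 0 for CLDN8, while those of CLDN4, CLDN7, CLDN23 and CLDN11 overlap.

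CLDN1 (ENSG00000163347), a barrier-forming claudin without which the epidermis leaks water, lies on the minus strand of chromosome 3 from 190305707 to 190322446 on hg38. Its normalized count was 900, 1036 and 889 in the KYSE70 libraries and 5624, 5234 and 4926 in the NRF2null-KYSE70 libraries. The lowest NRF2null-KYSE70 library was far above the highest KYSE70 library. The means were 941.6 ± 81.8 and 5262 ± 350 (SD, n = 3), a log2 fold change of 2.48 with a standard error of 0.07 and a 95% interval of 2.32 to 2.64 (adjusted p = 4.14e-11, limma). Of all tested genes, 295 had a larger rise.

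CLDN3 (ENSG00000165215) and CLDN4 (ENSG00000189143) are neighbours on chromosome 7 that encode barrier-forming claudins, both of them receptors of a clostridial enterotoxin. CLDN3 is a single-exon gene on the minus strand from 73768997 to 73770270, and CLDN4 lies on the plus strand from 73799542 to 73832690. CLDN3 measured 215, 272 and 227 in KYSE70 and 439, 355 and 392 in NRF2null-KYSE70. Its groups did not overlap, and the log2 fold change was 0.73 with a standard error of 0.14 and a 95% interval of 0.44 to 1.03 (adjusted p = 0.000497, limma). CLDN4 measured 238, 268 and 186 in KYSE70 and 302, 249 and 272 in NRF2null-KYSE70. One NRF2null-KYSE70 library lay within the KYSE70 range, and the log2 fold change of 0.26 had a 95% interval of -0.08 to 0.60 (adjusted p = 0.175, limma). The reads of CLDN3 per read of CLDN4 numbered 1.05 ± 0.161 (SD, n = 3) in KYSE70 and 1.44 ± 0.014 in NRF2null-KYSE70, with no overlap. The exact two-sided permutation test of this ratio gave p = 0.1, the smallest that 3 libraries against 3 allow.

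CLDN12 (ENSG00000157224), an unusual claudin that lacks the terminal motif by which most others bind plaque scaffolds, lies on the plus strand of chromosome 7 from 90383721 to 90513402. It measured 1025, 1069 and 1187 in KYSE70 and 1733, 1800 and 1674 in NRF2null-KYSE70. All NRF2null-KYSE70 libraries were higher, and the log2 fold change was 0.67 with a standard error of 0.07 and a 95% interval of 0.51 to 0.83 (adjusted p = 5.98e-06, limma). Longer transcripts of CLDN12 share exon sequence with GTPBP10 and CDK14, on the same strand, over 5.17% and 3.00% of its exons, but its canonical transcript shares 0% with either.

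CLDN8 (ENSG00000156284), a claudin best known from the distal nephron, is a single-exon gene on the minus strand of chromosome 21 from 30214006 to 30216097. It measured 14.2, 28.1 and 35.9 in KYSE70, from 16, 31 and 34 reads, and 0 in every NRF2null-KYSE70 library. A count of 0 allows up to 3 reads, and with 3 reads in each NRF2null-KYSE70 library CLDN8 was at least 8.31-fold lower there. It reached the filter on low counts through KYSE70 alone, so no test of it is given. The nearest gene, CLDN17, had 31 reads in the KYSE70 libraries together and 0 in NRF2null-KYSE70, and its values of 0.889, 7.26 and 23.2 in KYSE70 left it under the filter. With 1, 8 and 22 reads in the KYSE70 libraries, the lowest lay within the 3 reads that a count of 0 allows, so no fold is given. CLDN17 was named after its values were seen.

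CLDN7, CLDN11 and CLDN23 had mean normalized counts under 10 and were not tested. CLDN7 (ENSG00000181885, chromosome 17, 7259903 to 7263983, minus strand), a claudin that binds EPCAM along the lateral membrane, measured 6.23, 0 and 8.44 in KYSE70 and 5.07, 2.94 and 7.99 in NRF2null-KYSE70. CLDN11 (ENSG00000013297, chromosome 3, 170418868 to 170454733, plus strand), the claudin of myelin and of Sertoli cells, measured 3.56, 0.907 and 6.33 in KYSE70 and 0, 0.981 and 4.57 in NRF2null-KYSE70. CLDN23 (ENSG00000253958, chromosome 8, 8701937 to 8704096, plus strand) measured 1.78, 0 and 9.49 in KYSE70 and 9.13, 5.88 and 0 in NRF2null-KYSE70. The groups overlapped for all 3 genes, and in the fit without a filter their adjusted p was 0.643, 0.481 and 0.767 (limma), at read numbers that can show only large differences. Annotated readthrough transcripts cover 17.4% of the canonical transcript of CLDN7 and 21.4% of that of CLDN11, and no read was assigned to either readthrough gene. If reads that fit 2 genes were discarded, which the methods do not state, those stretches could not add to the counts.

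OCLN (ENSG00000197822) lies on the plus strand of chromosome 5 from 69492292 to 69558104. It measured 888, 967 and 953 in KYSE70 and 1624, 1651 and 1691 in NRF2null-KYSE70. The lines were far apart relative to the spread within each, with means of 936 ± 41.9 and 1655 ± 33.6 (SD, n = 3). The log2 fold change was 0.82 with a standard error of 0.07 and a 95% interval of 0.67 to 0.97 (adjusted p = 4.37e-07, limma). MARVELD2, the gene beside OCLN, encodes tricellulin, a relative of occludin at the corners where cells meet, and had a log2 fold change of -0.03 (adjusted p = 0.667, limma). The reads of OCLN per read of MARVELD2 were 0.283 ± 0.0215 and 0.511 ± 0.0285 in the respective lines, without overlap (exact permutation p = 0.1, the smallest possible). A stretch of 679 bases of the 6181-base OCLN transcript recurs in the pseudogene OCLNP1 at 99.7% identity, and OCLNP1 had 9 reads over all libraries, so reads of that stretch could not be placed with certainty.

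TJP1 (ENSG00000104067), which encodes the scaffold ZO-1, lies on the minus strand of chromosome 15 from 29699367 to 29968915. It measured 6733, 6605 and 6070 in KYSE70 and 8090, 7079 and 6967 in NRF2null-KYSE70. The groups lay next to each other, with the lowest NRF2null-KYSE70 library just above the highest of KYSE70. The log2 fold change was 0.19 with a 95% interval of 0.05 to 0.33 (adjusted p = 0.0231, limma). This call was lost under total-count scaling (log2 fold change 0.11, adjusted p = 0.137) and quantile normalization (0.10, adjusted p = 0.137), in limma without the trend (adjusted p = 0.109), and without KYSE70 replicate 2 (adjusted p = 0.0518) or replicate 3 (adjusted p = 0.110).

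Levels of different genes were compared as normalized counts per kilobase of annotated exon. In KYSE70 the order ran from TJP1 at 572 ± 31.1 through CLDN1 at 260 ± 22.6, CLDN3 at 187 ± 23.6, CLDN12 at 163 ± 12.5, OCLN at 83.2 ± 3.72 and CLDN4 at 49.1 ± 8.84 to CLDN8 at 12.5 ± 5.24 (SD, n = 3). The ranges of CLDN3 and CLDN12 overlapped, while those of the other neighbours in this order did not. CLDN7, CLDN23 and CLDN11 followed at means of 1.96, 1.74 and 0.832, with overlapping ranges. In NRF2null-KYSE70, CLDN1 stood first at 1450 ± 96.4, above TJP1 at 652 ± 54.7, and CLDN3, CLDN12, OCLN and CLDN4 followed in the same order as before at 310 ± 33.1, 259 ± 9.46, 147 ± 2.98 and 58.4 ± 5.68. The order depends on the length used: per kilobase of canonical transcript, CLDN12 stood above CLDN1 in KYSE70, at 310 against 273.

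CLDN1 made up a larger part of the claudin RNA in NRF2null-KYSE70. The expression table lists 24 claudin genes, of which 20 had a read. Their summed level per kilobase was 801 ± 49.9 (KYSE70) and 2229 ± 140 (NRF2null-KYSE70), or 2.78 times as high. CLDN1 made up 32.8%, 33.4% and 30.9% of it in the KYSE70 libraries and 65.1%, 65.8% and 64.4% in the NRF2null-KYSE70 libraries. The shares of CLDN3 and CLDN12 went from 23.3% ± 1.49 to 13.9% ± 1.05 and from 20.4% ± 1.87 to 11.6% ± 0.714 (SD, n = 3), while their own levels rose, since shares add up to a whole. CLDN15, a claudin that forms sodium pores in the intestine, went from 11.3% ± 1.85 to 4.03% ± 0.0285 of the sum, and CLDN4 from 6.12% ± 0.977 to 2.62% ± 0.177. For the sum and for each of these 5 shares the lines did not overlap and the exact two-sided permutation test gave p = 0.1, the smallest possible with 3 libraries against 3, so no adjusted value over them could fall under 0.05. The shares depend on the length used. Per kilobase of canonical transcript CLDN1 made up 23.2% and 55.0%, CLDN3 15.8% and 11.2%, CLDN12 26.4% and 17.7%, CLDN15 18.2% and 7.66%, and CLDN4 11.5% and 5.83% in KYSE70 and NRF2null-KYSE70. With no division by length CLDN1 made up 32.7% and 65.0%, and CLDN3 8.25% and 4.88%.

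**Figure D2:**
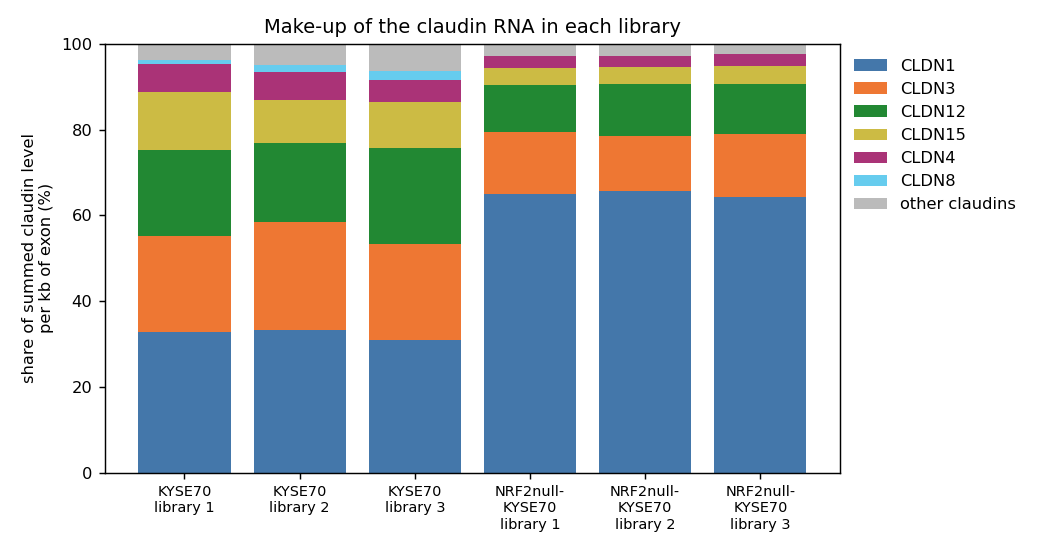
Share of each claudin in the summed claudin level per kilobase of exon (percent), stacked for each of the 6 libraries. The CLDN1 part is between 30.9% and 33.4% in KYSE70 and between 64.4% and 65.8% in NRF2null-KYSE70, and the parts of CLDN3, CLDN12, CLDN15 and CLDN4 are smaller in NRF2null-KYSE70.

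The other 16 claudins were scarce except for CLDN15. Of these, 5 were tested, 2 passed as higher and 0 as lower, and 4 had no read in any library. Over all tested genes, 29.3% passed as higher and 28.3% as lower. CLDN16, which lies beside CLDN1 and serves magnesium reabsorption in the kidney, measured 10.7, 27.2 and 22.1 in KYSE70 and 71.0, 102 and 58.2 in NRF2null-KYSE70 (log2 fold change 1.95, adjusted p = 0.000758, limma). CLDN19, its partner in the kidney, measured 15.1, 12.7 and 16.9 against 47.7, 30.4 and 46.8 (1.40, adjusted p = 0.00547, limma). Both were higher in all NRF2null-KYSE70 libraries. CLDN15 had a mean of 261 in KYSE70 and 259.8 in NRF2null-KYSE70 (log2 fold change -0.003, 95% interval -0.29 to 0.28). CLDN15, CLDN16 and CLDN19 were named after their values were seen. The reads of CLDN1 per read of CLDN16 were 54.2 ± 26.1 in KYSE70 and 71.7 ± 17.9 in NRF2null-KYSE70, and overlapped (exact permutation p = 0.3).

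Among 13 other membrane proteins of tight junctions, 11 were tested, and the median log2 fold change was 0.25. Beside shares of 29.3% and 28.3% over all tested genes, 5 passed as higher and 0 as lower. ILDR2 and ILDR1, which are among the angulins that mark the corners where cells meet, passed both cut-offs. LSR, also on this list, was not among the genes that passed. ILDR2 measured 68.5, 71.7 and 60.1 in KYSE70 and 314, 236 and 280 in NRF2null-KYSE70 (log2 fold change 2.03, adjusted p = 8.02e-07, limma). ILDR1 had means of 100 ± 8.71 and 231 ± 20.7 (1.20, adjusted p = 4.07e-05, limma). F11R, the junctional adhesion molecule JAM-A, had means of 6320 ± 137 and 8390 ± 389 (SD, n = 3), with a log2 fold change of 0.41 (adjusted p = 1.43e-05, limma). JAM3 and CXADR were the others that passed. The call of JAM3 was lost in 4 of 16 alternatives, which were total-count scaling, limma without the trend, and the fits without KYSE70 replicate 3 or NRF2null-KYSE70 replicate 2 (adjusted p = 0.058 to 0.0718). Its exons overlap those of NCAPD3 on the opposite strand over 50.2% of its canonical transcript.

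The 26 plaque and polarity proteins included 25 tested genes, of which 15 passed as higher and 4 as lower, with a median log2 fold change of 0.34. CGNL1, which encodes paracingulin, a protein of the junction plaque, had the largest fold change of the list. It measured 58.7, 68.0 and 54.8 in KYSE70 and 579, 476 and 581 in NRF2null-KYSE70 (log2 fold change 3.15, adjusted p = 4.89e-09, limma). AMOTL2, an angiomotin that holds the coactivator YAP at junctions, rose from 5344 ± 197 to 16845 ± 786 (1.66, adjusted p = 5.21e-11, limma). The 4 that were lower were AMOT, PARD6G, PARD3 and AMOTL1, of which AMOTL1 (-0.18, adjusted p = 0.0496, limma) lost its call in 7 of 16 alternatives, among them the fits without KYSE70 replicate 1 or 2 or NRF2null-KYSE70 replicate 2 or 3 (adjusted p = 0.137 to 0.184). AMOT, of the same angiomotin family as AMOTL2, fell from 3621 ± 265 to 1415 ± 143 (-1.36, adjusted p = 1.75e-08, limma). TJP3, a scaffold related to TJP1, rose from 165 ± 18.9 to 419 ± 12.9 (1.35, adjusted p = 2.04e-06, limma).

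**Figure D3:**
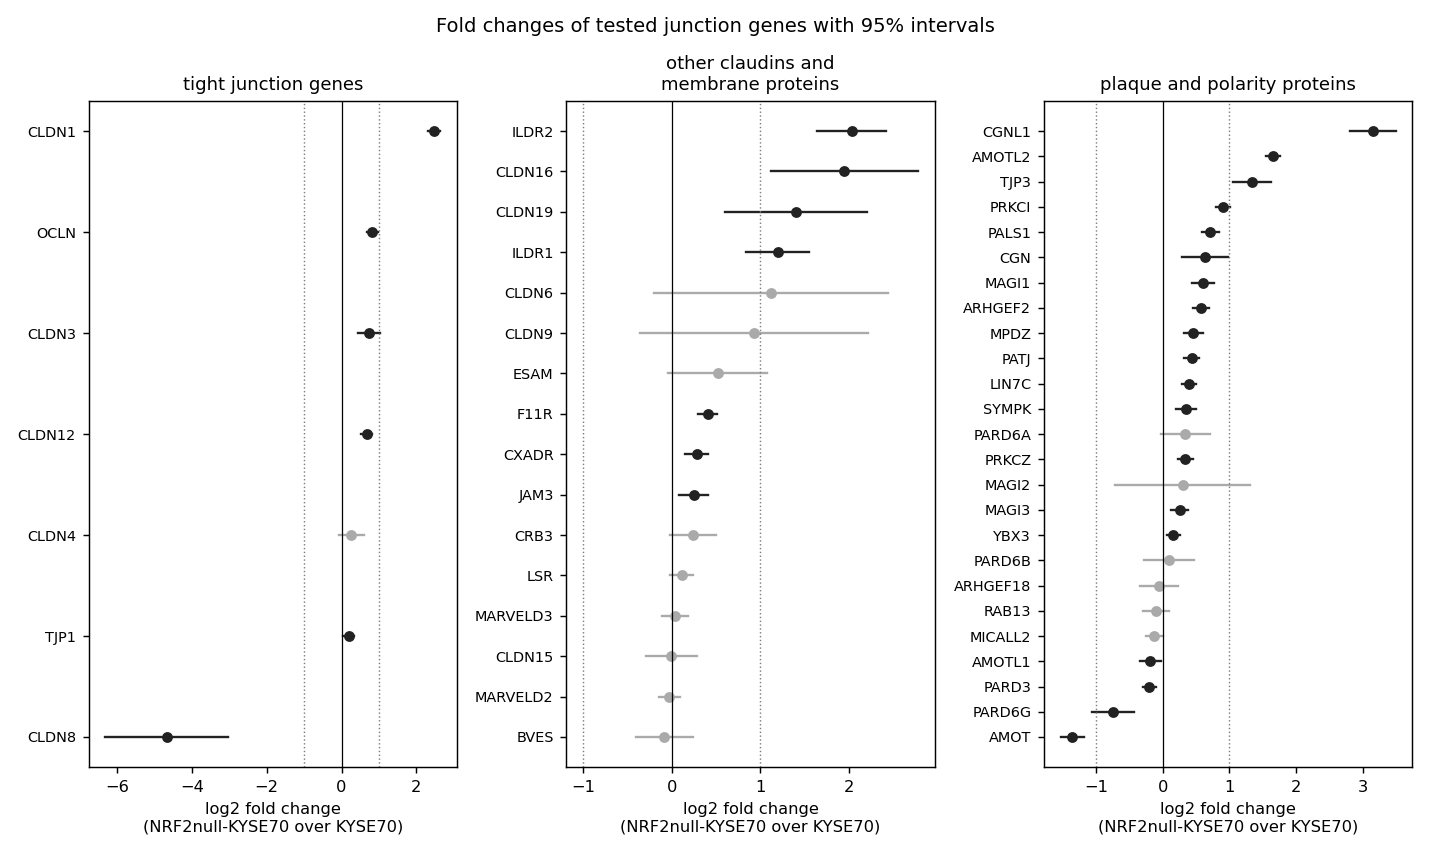
Log2 fold change (NRF2null-KYSE70 over KYSE70, x axis) of tested junction genes with 95% intervals, for the 7 tested tight junction genes (left), other claudins and membrane proteins (middle) and plaque and polarity proteins (right). Black points passed an adjusted p of 0.05, grey points did not, and dotted lines mark a log2 fold change of 1 in either direction. CLDN8 reached the filter through KYSE70 only, so its colour and interval are not to be read as a test. CLDN1 at 2.48, ILDR2 at 2.03 and CGNL1 at 3.15 lie farthest right in their panels and CLDN8, whose fitted value depends on the pseudocount, farthest left.

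Adherens junctions lie just below tight junctions and are built on E-cadherin. Of the 11 genes on this list all were tested, 5 passed as higher (CDH1, CTNNA1, AFDN, NECTIN2 and VCL) and 4 as lower (CTNNB1, NECTIN1, NECTIN3 and NECTIN4). Over all tested genes the shares were 29.3% and 28.3%. CDH1, which encodes E-cadherin, measured 6690, 6644 and 5939 in KYSE70 and 10849, 8995 and 9519 in NRF2null-KYSE70 (log2 fold change 0.60, adjusted p = 9.45e-06, limma). NECTIN3, an adhesion receptor, fell from 388 ± 86.2 to 127 ± 7.92 (-1.58, adjusted p = 4.47e-06, limma). Among 7 partners and proteases of claudins, 5 were tested and EPCAM, SPINT1, ST14 and CD9 passed as higher. EPCAM, which binds CLDN7 and CLDN1 and shields them from degradation, rose from 19673 ± 290 to 24256 ± 619 (0.30, adjusted p = 5.84e-05, limma). SPINT1, an inhibitor of the protease that cleaves EPCAM, rose from 5541 ± 183 to 11797 ± 959 (1.09, adjusted p = 8.91e-09, limma).

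Of 12 transcription factors that set epithelial identity, 11 were tested. Beside shares of 29.3% and 28.3% over all tested genes, 4 passed as higher and 4 as lower (GRHL3, EHF, KLF5 and ELF3). The number lower stayed at 4 in every alternative, while the number higher fell as far as 2. GRHL1, among the higher (log2 fold change 0.48, adjusted p = 0.0372, limma), lost its call in 6 of 16 alternatives. GRHL3 and EHF, both activators of epithelial genes, fell from 565 ± 37.9 to 246 ± 8.77 (log2 fold change -1.20, adjusted p = 1.06e-06, limma) and from 4960 ± 181 to 2259 ± 159.5 (-1.14, adjusted p = 8.36e-09, limma). OVOL2, which represses mesenchymal genes, had a log2 fold change of 0.40 (adjusted p = 0.0301, limma), a call lost in 4 of 16 alternatives: total-count scaling (adjusted p = 0.0693) and the fits without KYSE70 replicate 1 (0.128), NRF2null-KYSE70 replicate 1 (0.0711) or replicate 2 (0.0584). GRHL2, an activator of CDH1 and claudin genes, was under the filter at means of 1.90 and 8.82. Of 6 repressors of epithelial genes 5 were tested, 1 passed as higher (TWIST1) and 2 as lower (ZEB1 and ZEB2). ZEB1 fell from 58.4 ± 7.88 to 25.5 ± 10.3 (-1.25, adjusted p = 0.0104, limma). SNAI2, the repressor with the most reads, had means of 1697 ± 36.5 and 1780 ± 90.1 (0.07, adjusted p = 0.381, limma).

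Each tight junction gene was set beside the 20 nearest tested genes on either side of it on the chromosome, to show whether its surroundings differed in the same way. The median log2 fold change of the neighbours was 0.22 for CLDN1, 0.13 for OCLN, 0.29 for CLDN3 and CLDN4, which share most of their neighbours, 0.22 for CLDN12, 0.11 for TJP1 and -0.09 for CLDN8. Of 40 neighbours, 1 had a higher fold change than CLDN1, 4 than OCLN, 3 than CLDN3 and 9 than CLDN12. For CLDN4 and TJP1 the numbers were 21 and 19, so these genes were near the middle of their surroundings. After subtraction of the neighbours' median, the log2 fold change was 2.26 for CLDN1, 0.69 for OCLN, 0.44 for CLDN3, 0.45 for CLDN12, 0.079 for TJP1 and -0.032 for CLDN4. Next to CLDN1, CLDN16 had a log2 fold change of 1.95, P3H2 of 1.13, IL1RAP of 0.84 and TP63 of -0.92. DNA copy number was not measured here.

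**Figure D4:**
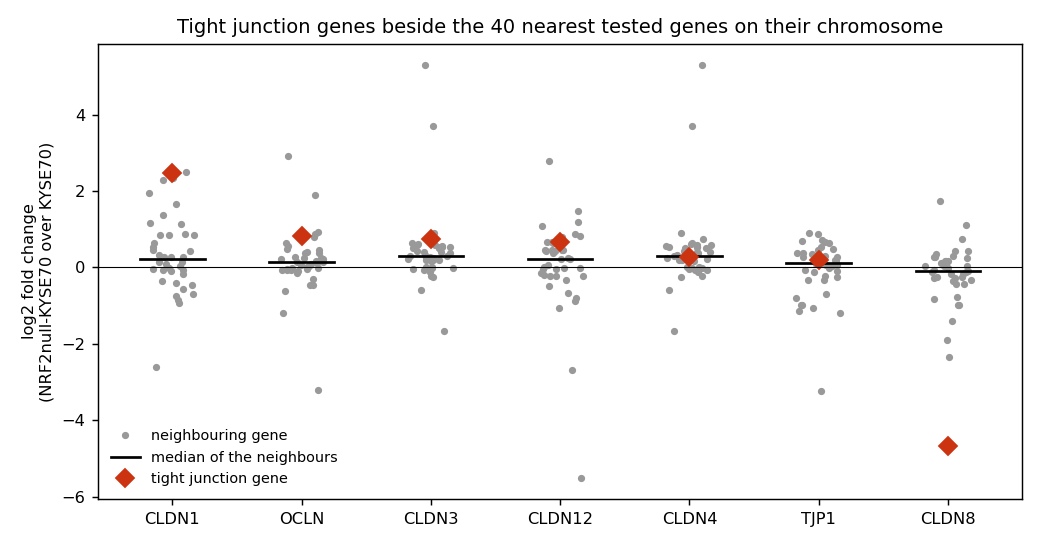
Log2 fold change (NRF2null-KYSE70 over KYSE70, y axis) of the 7 tested tight junction genes (diamonds), each with its 40 nearest tested genes on the chromosome (grey points) and their median (line). CLDN1 at 2.48 has 1 neighbour above it, and CLDN4 and TJP1 lie among their neighbours. CLDN8 lies below all 40, but it reached the filter through KYSE70 only, so that it had to differ.

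Genes that mark squamous carcinoma, among them keratin and desmosome genes, were checked against the label. All 10 were tested, with KRT5, the basal keratin, at a mean of 209917 in KYSE70 and 124640 in NRF2null-KYSE70. Of these 10, 4 passed as higher and 6 as lower, and the median log2 fold change was -0.60. DSP, among the higher (0.26, adjusted p = 0.0422, limma), lost its call in 9 of 16 alternatives. In DESeq2 its adjusted p was 0.167. KRT14 rose from 46.4 ± 17.5 to 156 ± 54.4 (log2 fold change 1.74, adjusted p = 0.000316, limma). In bulk RNA, fewer cells of a type and less RNA per cell cannot be told apart. Of 8 simple epithelium markers 5 were tested, 2 passed as higher (KRT7 and KRT19) and 1 as lower (KRT8), with a summed level of 80033 to 81840 in KYSE70 and 53130 to 54953 in NRF2null-KYSE70. KRT19 (log2 fold change 1.92, adjusted p = 0.0381, limma) lost its call in 9 of 16 alternatives, DESeq2 and edgeR among them, and without KYSE70 replicate 2 its value was 1.02 (adjusted p = 0.124). KRT7 lost its call in limma without the trend (adjusted p = 0.051). With the filter at a mean of 50, 2 genes of this list were tested, with 0 higher and 1 lower. The calls of KRT7 and KRT19 thus rest on genes of few reads. Of 7 fibroblast markers, COL1A1 and COL3A1 were tested and both fell, from 1232 to 554 and from 257 to 8.46. COL3A1 reached the filter through KYSE70 only, so that it had to differ. The summed level of that list was 1384 to 1618 in KYSE70 and 485 to 638 in NRF2null-KYSE70, and the defining markers COL1A2 and DCN had no read. Of 5 endothelial markers 2 were tested and both passed as higher, TEK and VWF, with VWF at 142 and 353. VWF made up nearly all of that list in KYSE70, so TEK was low there and its call rests on NRF2null-KYSE70. That list summed to 137 to 159 and 293 to 499, with PECAM1, CDH5 and KDR at or near 0. Of 5 leukocyte markers only PTPRC was tested, at 0, 0 and 1.05 in KYSE70 and 42.6, 40.2 and 47.9 in NRF2null-KYSE70, at least 15.3-fold higher by the bound of 3 reads per library. PTPRC reached the filter through NRF2null-KYSE70 only, so that it had to differ. That list summed to 0 to 15.8 and 42.2 to 58.2, with CD3E and CD68 at or near 0. The part of these lists in the differences of the tight junction genes was not tested.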

How the data were processed

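RNA-seq was performed on total RNA of untreated KYSE70 and NRF2null-KYSE70 cells, 3 libraries each. Per the methods and the labels, the authors trimmed reads with cutadapt 1.12, aligned them with STAR 2.6.90c to hg38, counted them with featureCounts 1.5.1 and normalized the counts with DESeq2. Strand use and the handling of reads with several alignments were not given in the sources used here. The deposited values are a signal in normalized counts. Whole reads were recovered from them (100% of values within 0.1 of a whole read), with 52072801 to 63975313 reads per library. Columns were assigned by cell line, and libraries are numbered by their order in the table. Nothing in the labels says that libraries came from separate cultures, so p-values measure the spread between these libraries, which may be technical.

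Genes with a mean of at least 10 were tested with limma 3.58.1 (R 4.3.3, mean-variance trend) on log2(normalized count + 1), a scale that understates changes of low genes, with Benjamini-Hochberg adjustment over 15994 genes and cut-offs of an adjusted p of 0.05 and an absolute log2 fold change of 1. The test was checked on simulated data. Alternatives included DESeq2 1.42.0 and edgeR 4.0.16 on the recovered reads. A fold against a line with 3 reads or fewer in each library is given as a bound, for counting error only. Positions and lengths came from GENCODE v44, near-identical stretches from blastn 2.17.0, and upstream sequences from RefSeq GRCh38.p14. The genes, the 12 other lists and the tests were chosen with earlier results of these data known. Named were all 10 tight junction genes, up to 4 genes per list past both cut-offs with a mean of at least 100, and CDH1, EPCAM, GRHL2, OVOL2, SNAI2, ZEB1 and F11R, and 1 further gene is not reported here. Other genes were named after their values were seen. Ratios of adjacent genes and the canonical-transcript lengths were chosen after seeing the data.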

Additional observations from a re-analysis of the deposited data

How the results depend on the processing

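No paired analysis was possible because no replicate number stands in the column names. Over 16 alternatives (pseudocounts of 0.1 and 5, filters at a mean of 50 and none, TMM, total-count and quantile scaling, limma without the trend, DESeq2, edgeR, and each library left out), the log2 fold change lay between 2.41 and 2.55 for CLDN1, 0.65 and 0.83 for CLDN3, 0.59 and 0.73 for CLDN12 and 0.75 and 0.85 for OCLN, each past the adjusted p throughout. CLDN4 lay between 0.11 and 0.38 and never passed. The fitted values of CLDN8 were -7.93 to -2.57 in the 15 that kept it and depend on the pseudocount. TJP1 lay between 0.10 and 0.23 and passed in 11. It was lost under total-count scaling (0.11), quantile normalization (0.10) and limma without the trend (0.19), and leaving out single libraries gave 0.12 to 0.23. With the filter at a mean of 50, which drops genes of few reads, 1511 genes passed both cut-offs, against 2344. Of the tight junction genes 1, CLDN1, passed both, as it did at a mean of 10. The count of 2 at a mean of 10 includes CLDN8, which was no longer tested at 50. CLDN8 reached the filter at 10 through KYSE70 only, so that it had to differ, and its call is not a result. Subtracting the median of 40 neighbouring genes, which gives a value with no test, moved CLDN1 to 2.26, OCLN to 0.69, CLDN3 to 0.44, CLDN12 to 0.45 and TJP1 to 0.079 and turned CLDN4 to -0.032. The cause was not tested for the other changes.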
